A study of Mus musculus with 16 samples.

Results

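Mouse tumour organoids carrying the Epstein-Barr virus oncogene LMP1 were compared with tumour organoids lacking it, within the 2 groups whose sample titles begin with Lung. The 5 libraries, taken by their titles out of 16 in the series, are Lung-Ctr (n = 2) and Lung-LMP1 (n = 3). All are polyadenylated RNA from organoids (3-dimensional cultures) of C57BL/6 mice, and all carry Trp53-/-, Myc and sgCdkn2a, a background abbreviated TMP. Lung-LMP1 adds LMP1 (TMPL). The labels add that tumours grew in recipient mice after transplantation into the nasopharynx. The sample descriptions call both Lung-Ctr libraries primary and all 3 Lung-LMP1 libraries metastasis, whereas the design text names primary and metastasized organoids of both genotypes. Genotype and the described site therefore cannot be told apart here, and the word Lung is used only as part of a title. The labels used here do not state age, promoter, clones or the number of animals behind the libraries, so p-values measure the spread between these samples, which may be technical. LMP1 (n = 2) and Ctr (n = 3), the tumour libraries without the Lung title, have the same 2 genotypes, share no library with this comparison and serve as a second look at the genes named. Their descriptions follow genotype in the same way, Ctr primary and LMP1 metastasis, so genotype and described site cannot be told apart there either.

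LMP1 is a membrane protein that signals without a ligand, much like a permanently active tumour necrosis factor receptor. Its cytoplasmic tail recruits TRAF adaptors and activates NF-kB, MAP kinase, AP-1 and other pathways, and it is commonly expressed in nasopharyngeal carcinoma, which arises from pharyngeal epithelium. Myc, shared by both groups, is a transcription factor that drives ribosome production and biosynthesis by binding E-box sequences with its partner Max. ATF4 is a transcription factor made when amino acids run short or the endoplasmic reticulum is stressed, and it switches on amino acid synthesis, amino acid transport and tRNA charging through amino acid response elements.

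The Lung-Ctr libraries held 14360362 and 15053411 counts, and the Lung-LMP1 libraries 14767904, 16338921 and 12535166. A floor of 3 counts in a library corresponds to between 0.192 and 0.247 CPM (library-size-scaled counts, by the TMM method). This floor covers counting error only. Lung-Ctr replicate 1 stood apart. Its log2 CPM correlated with those of Lung-Ctr replicate 2 at r = 0.901 across genes, below the 0.932 to 0.951 of Lung-Ctr replicate 2 with each Lung-LMP1 library. On the first principal component, with 58% of the variance, Lung-Ctr replicate 1 scored -74.02 and Lung-LMP1 replicate 2 -15.28, against 22.06 to 36.48 for the other 3, and on the second (21.3%) both Lung-Ctr libraries scored below 0 and all 3 Lung-LMP1 libraries above it.

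**Figure D1:**
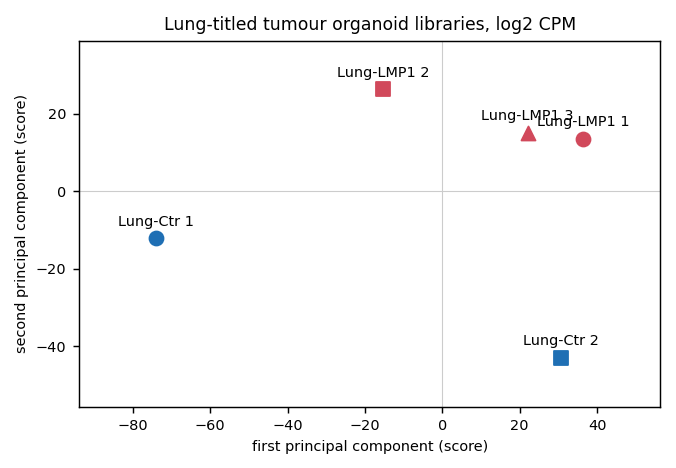
Scores of the 5 libraries on the first and second principal components of log2 CPM (x and y axes, unitless); 1 point per library, blue Lung-Ctr, red Lung-LMP1, shape by replicate number. Lung-Ctr replicate 1 lies at -74.02 on the first component, and the second separates the genotypes, with Lung-Ctr at -12.12 and -43.04 and Lung-LMP1 at 13.58, 26.4 and 15.18.

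No gene passed the test, which also missed most 2-fold differences in simulated data. edgeR's quasi-likelihood test called 0 of 13460 genes (0%) at an adjusted p under 0.05, with 2295 (17.1%) at an unadjusted p under 0.05, and limma voom also called 0. DESeq2 called 488 genes higher and 393 lower, and the authors' deposited table called 287 higher (2.25% of 12750) and 149 lower (1.17%). The smallest edgeR adjusted p was 0.109 and was shared by 154 genes, so named genes below are described by their values, as lying higher or lower and not as changed. Without Lung-Ctr replicate 1 edgeR called 7 genes, without Lung-Ctr replicate 2 33, and without Ctr replicate 1 (a library that enters only the shared estimate of spread) 14. Over all genes tested, the median log2 fold change was -0.04, 46.8% had a higher mean in Lung-LMP1 and 53.2% a lower one. In 17.4% every Lung-LMP1 library lay above both Lung-Ctr libraries, and in 15.9% below, which are the backgrounds for the counts that follow, together with 9.03% higher and 8.02% lower at an unadjusted p under 0.05.

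The genes of smallest p that lay higher in Lung-LMP1 were Ssbp4, Vps72, Dazap1, Atf4, Arpc1b, Atp5k, Pdap1 and Ybx1. Atf4 (chromosome 15, 80255184 to 80257541, GRCm38) was at 205 and 188 CPM in Lung-Ctr and at 445, 515 and 557 CPM in Lung-LMP1. All 3 Lung-LMP1 libraries were above both Lung-Ctr libraries, and each group was tight. The mean was 506 ± 56.9 CPM (SD, n = 3) against 197 ± 12 (SD, n = 2), a log2 fold change of 1.36 ± 0.191 SE (edgeR adjusted p = 0.109). Ybx1 encodes a Y-box protein that binds RNA and DNA, and was at 386 and 358 CPM against 1045, 849 and 943 (log2 fold change 1.35 ± 0.201 SE, edgeR adjusted p = 0.109). Atp5k, a small subunit of the mitochondrial ATP synthase, was at 2.05 and 1.21 CPM in Lung-Ctr against 37.7, 28.3 and 25.3 in Lung-LMP1, an 18.6-fold difference (log2 fold change 4.22 ± 0.616 SE, edgeR adjusted p = 0.109). It too had no overlap between groups. The other 5 were Ssbp4 (log2 fold change 1.56), Vps72 (1.27), a subunit of complexes that deposit the histone variant H2A.Z, the RNA-binding protein Dazap1 (66.5 and 59.5 CPM against 139, 120 and 118), the actin-nucleating complex subunit Arpc1b (0.88) and Pdap1 (1.58).

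The genes of smallest p that lay lower were Tmem245, Ttbk2, Col4a2, Lpl, Senp7, Rbm43, Man2a1 and Fam126a. Lpl, which encodes lipoprotein lipase and lies on chromosome 8 from 68880491 to 68907448, was at 141 and 151 CPM in Lung-Ctr and at 51.2, 24.1 and 41.8 CPM in Lung-LMP1 (log2 fold change -1.91 ± 0.292 SE, edgeR adjusted p = 0.109). Col4a2, a chain of the basement membrane collagen IV, was at 209 and 42.4 CPM against 10.2, 12.7 and 7.82 (log2 fold change -3.62 ± 0.548 SE, edgeR adjusted p = 0.109). The groups did not overlap for either gene, but the 2 Lung-Ctr libraries agreed for Lpl and lay far apart for Col4a2, whose log2 fold change was -2.07 without Lung-Ctr replicate 1. Ttbk2, a kinase needed for cilium assembly, was at 54.5 and 54.2 CPM against 18.2, 24.1 and 21.5 (log2 fold change -1.35). The remaining 5 were Tmem245 (-0.93), the SUMO protease Senp7 (-0.99), Rbm43 (-1.48), the Golgi mannosidase Man2a1 (-0.84) and Fam126a (-0.89). In the authors' deposited table all 16 of these genes of smallest p were called, 8 higher and 8 lower. That table compares the same 5 libraries from which these genes were chosen, so its calls are not independent of the choice.

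Atp5k and Col4a2 were also among the genes of largest fold. The other genes of largest fold often rested more on single libraries. Slc7a8, a transporter of neutral amino acids, was at 0.282 and 6.45 CPM in Lung-Ctr and at 81.6, 73.5 and 10.7 in Lung-LMP1 (log2 fold change 4.03 ± 1.37 SE, edgeR adjusted p = 0.198). Its log2 fold change was 7.58 without Lung-Ctr replicate 2 and 3.07 without Lung-Ctr replicate 1. The secreted iron-binding defence protein Lcn2 was at 16.1 and 6.32 CPM against 19.8, 219 and 44.1, with Lung-LMP1 replicate 1 close to Lung-Ctr (log2 fold change 3.07, and 1.51 without Lung-LMP1 replicate 2). The chemokine gene Ppbp was at 6.63 and 22.2 CPM against 223, 78 and 66.8 (log2 fold change 3.09), the membrane mucin Muc4 at 15 and 3.22 against 40.7, 188 and 54.1 (3.38) and Fam167a at 9.67 and 16.8 against 189, 64.8 and 66.9 (3.01). None of these overlapped between groups.

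Among the lowest, Tgfb3 was the gene on which the libraries of each group agreed. This growth factor was at 49.1 and 60.3 CPM in Lung-Ctr and at 2.54, 7.75 and 7.08 in Lung-LMP1 (log2 fold change -3.24 ± 0.683 SE, edgeR adjusted p = 0.109). Fndc1, a fibronectin domain gene, was at 623 CPM in Lung-Ctr replicate 1 and at 7.32 in replicate 2, against 2.62, 1.92 and 5.85 in Lung-LMP1. Its log2 fold change of -6.52 was -1.10 without Lung-Ctr replicate 1. The same library held the high value of the transcription factor Sox9 (192 CPM, against 25.1 in replicate 2 and 6.61 to 20.7 in Lung-LMP1), of Kif26a (85 against 14.6, and 2.91 to 5.77) and of Eva1a (73.2 against 7.73, and 2.11 to 6.69). Without it the log2 fold changes of these genes went from -3.07 to -0.97 for Sox9, from -3.61 to -1.86 for Kif26a and from -3.26 to -0.90 for Eva1a.

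**Figure D2:**
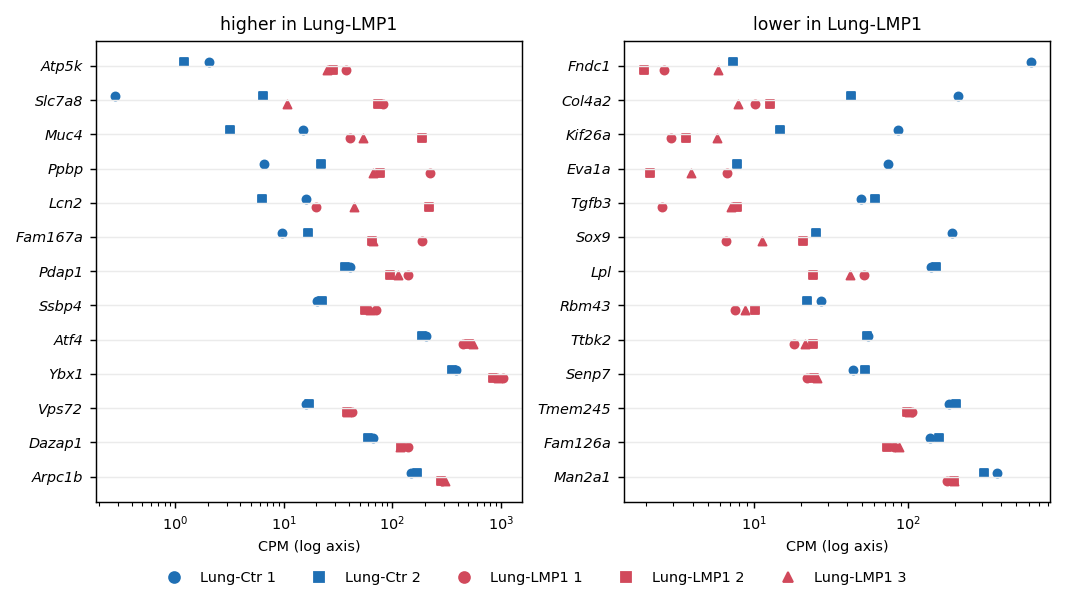
CPM of the genes of smallest p and largest fold (x axis, log scale), 1 row per gene, left those higher and right those lower in Lung-LMP1; each symbol is a library, blue Lung-Ctr, red Lung-LMP1. The groups do not overlap in any row, as the choice of these genes required, but Lung-Ctr replicate 1 (blue circle) lies far above replicate 2 for Fndc1 (623 against 7.32 CPM) and Sox9 (192 against 25.1).

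The genes of smallest adjusted p were looked up in LMP1 against Ctr, which has the same genotypes, the same split of described site and other libraries. Of the 108 that lay higher in Lung-LMP1, 107 (99.1%) also lay higher in LMP1, and 96 (88.9%) rose there by edgeR's adjusted p. Of the 46 that lay lower, 36 (78.3%) also lay lower and 16 (34.8%) fell. For all genes tested with a higher mean in Lung-LMP1, the same shares were 63.6% and 13.3%, and for all with a lower mean 63.3% and 12.3%. All 8 of the genes of smallest p listed above as higher rose in LMP1, with log2 fold changes between 0.87 and 3.11. Of the 8 lower ones 7 shared the direction and 3 fell, with log2 fold changes between -1.14 and 0.20. Both comparisons come from 1 edgeR fit and share its estimate of each gene's spread, so the shares called in LMP1 are not independent of how the genes were chosen. Atf4 was at 257, 177 and 189 CPM in Ctr and at 536 and 495 in LMP1 (log2 fold change 1.31, edgeR adjusted p = 0.00506), close to the 1.36 between the Lung-titled groups. Of the genes of largest fold, which include Atp5k and Col4a2, 2 of the 6 higher ones and 4 of the 6 lower ones shared their direction. Ppbp fell in LMP1, where it was at 0.0528 and 1.17 CPM against 130, 64.2 and 26.8 in Ctr.

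The 108 higher genes were short and rich in G and C. Their longest annotated transcript had a median length of 2002 bases and a median GC content of 54.2%, against 3372 bases and 49.89% over all genes tested, while the 46 lower genes had 4916 bases and 44.9%. Across 12781 genes with a length, the log2 fold change correlated with GC content at rho = 0.196 and with log length at rho = -0.16, given as a description of these libraries. Each library was then corrected for its smooth trend with length and GC content. The corrected log2 fold change was 1.19 for Atf4, 1.19 for Ybx1, 3.91 for Atp5k, 1.22 for Ssbp4, -0.62 for Tmem245 and -1.76 for Lpl. The corrected direction in LMP1 against Ctr was also set beside the uncorrected direction between the Lung-titled groups. The directions matched for 106 of the 108 and 33 of the 46 (98.1% and 71.7%). Over all genes with a higher or a lower uncorrected mean in Lung-LMP1 the shares were 70.1% and 55.2%. The part that a trend of transcripts or library preparation has in the rest was not tested.

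**Figure D3:**
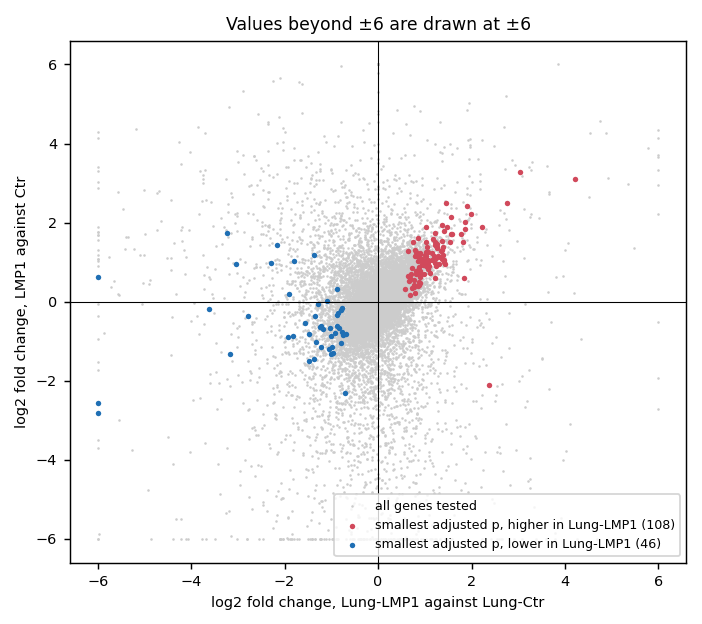
Log2 fold change of Lung-LMP1 against Lung-Ctr (x axis) and of LMP1 against Ctr (y axis), 1 dot per gene; grey all 13460 genes tested, red and blue the 154 genes of smallest adjusted p in the Lung-titled comparison. Of the 108 red genes 107 lie above 0 on the y axis, and of the 46 blue genes 36 lie below it.

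The genes named in the genotype came first among the pathway groups. Trp53, which encodes p53, was at 59.1 and 86.9 CPM against 87.8, 105 and 110, and Cdkn2a, which encodes p16 and p19, at 123 and 364 against 177, 306 and 193. Gene-level counts do not show which exons are present, so reads outside a deleted or edited part say nothing of the alleles, and Cdkn2a overlapped between groups. Myc lies on chromosome 15 from 61985391 to 61990374 and was at 463 and 575 CPM in Lung-Ctr and at 1299, 611 and 1102 in Lung-LMP1 (log2 fold change 0.95 ± 0.292 SE, edgeR adjusted p = 0.172). Lung-LMP1 replicate 2 lay just above Lung-Ctr, and the other 2 well above; introduced and native Myc transcripts cannot be told apart in these counts. The LMP1 transcript itself was not analysed here. In bulk libraries, fewer cells of a type and less RNA per cell cannot be told apart, and this holds for all levels below.

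Genes of ribosome production followed the order of Myc over the Lung-LMP1 libraries. All 37 ribosome biogenesis genes tested had a higher mean in Lung-LMP1 (median log2 fold change 0.73, against -0.04 over all genes), 18 did not overlap between groups and 12 had an unadjusted p under 0.05, none passing over all genes. Their summed level was 6051 and 5543 CPM against 13266, 6273 and 8914. Replicate 1 was highest and replicate 2 barely above the controls, as for Myc. Without Lung-LMP1 replicate 1 the median was 0.37.

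Fbl, the methyltransferase fibrillarin of the nucleolus, was at 74.9 and 72.9 CPM against 257, 135 and 197 (log2 fold change 1.41 ± 0.27 SE, edgeR adjusted p = 0.109). Gar1, a protein of the snoRNPs that modify ribosomal RNA, was at 16 and 19.6 against 52.7, 28.9 and 38.1 CPM (log2 fold change 1.16), and Pes1, which acts in maturation of the large ribosomal subunit, at 81.5 and 74 against 199, 116 and 141 (0.96). These 3 did not overlap between groups. The nucleolar proteins Ncl (log2 fold change 0.78) and Nop56 (0.47) and the RNA polymerase I subunit Polr1b (0.42) did overlap, since Lung-LMP1 replicate 2 lay within or below the range of Lung-Ctr.

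The 25 tested MYC targets of metabolism and translation had a median of 0.44 (0.19 without Lung-LMP1 replicate 1), with 22 higher in the mean. Without overlap 6 lay above Lung-Ctr and 1 below, beside 17.4% and 15.9% over all genes. By an unadjusted p under 0.05, 3 lay higher and 1 lower, beside 9.03% and 8.02%. The DNA repair enzyme Apex1 was at 2.05 and 2.35 CPM against 12.9, 6.15 and 6.75 (log2 fold change 1.96), and the translation helicase Eif4a1 at 1216 and 809 against 2096, 1476 and 1590 (0.77). Cad, the first enzyme complex of pyrimidine synthesis, was at 241 and 219 CPM against 628, 242 and 401, so that Lung-LMP1 replicate 2 equalled the controls. Odc1, the entry enzyme of polyamine synthesis, overlapped, at 1130 and 258 against 1270, 634 and 734. Among Myc's partners, Max was at 59.7 and 55 CPM against 108, 61.9 and 83.2 (log2 fold change 0.56) and the antagonist Mnt at 21.1 and 26.3 against 40.6, 36.2 and 34.3 (0.65).

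The canonical E-box, CACGTG, the same on both strands, was searched in RefSeq promoter windows of 300 bases, mostly upstream of the annotated start (GRCm38.p6). It was in 7 of the 32 ribosome biogenesis genes with a window (21.9%) and in 10 of 21 MYC metabolic genes (47.6%), against 8.09% of 27025 genes. Windows of Pes1 and Apex1 are shown because both genes lay higher in every Lung-LMP1 library. Capitals mark the E-boxes, of which Pes1 has 1 and Apex1 has 3. A match of letters is a description and no evidence of binding. The shares follow from which genes the lists hold, not from their levels in these libraries.
Pes1 (chr11:3963725-3964024, strand plus): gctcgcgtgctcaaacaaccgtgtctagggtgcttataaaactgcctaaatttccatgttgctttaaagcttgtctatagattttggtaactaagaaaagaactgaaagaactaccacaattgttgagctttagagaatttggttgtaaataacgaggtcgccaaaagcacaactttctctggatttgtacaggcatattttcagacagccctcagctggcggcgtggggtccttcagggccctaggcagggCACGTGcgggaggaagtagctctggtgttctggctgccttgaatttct
Apex1 (chr14:50924699-50924998, strand plus): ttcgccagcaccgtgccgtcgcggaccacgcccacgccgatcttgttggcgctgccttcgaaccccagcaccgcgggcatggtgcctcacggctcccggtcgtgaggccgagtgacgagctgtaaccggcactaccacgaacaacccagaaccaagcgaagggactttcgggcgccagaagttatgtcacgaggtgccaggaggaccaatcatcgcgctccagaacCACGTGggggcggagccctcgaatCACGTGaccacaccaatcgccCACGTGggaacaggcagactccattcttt

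Most mitochondrial ribosomal protein genes lay higher in Lung-LMP1. Of 76 tested, 69 had a higher mean in Lung-LMP1, 42 lay without overlap above Lung-Ctr and 1 below, and 25 had an unadjusted p under 0.05 (median log2 fold change 0.36). Mrps21 was at 7.48 and 9.14 CPM against 35.6, 28.6 and 26.9 (log2 fold change 1.87 ± 0.293 SE, edgeR adjusted p = 0.109). Mrpl54 was at 6.35 and 7.46 against 21.9, 16.8 and 16.5 (1.41). Both were high in all 3 Lung-LMP1 libraries, and both also rose in LMP1 against Ctr (log2 fold changes 2.01 and 1.78). The summed level was 2827 and 2773 CPM against 4249, 3140 and 3648. After the length and GC correction the median was 0.34, and without Lung-LMP1 replicate 1 it was 0.24.

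Cytosolic ribosomal protein and respiratory chain genes were split. Of 79 cytosolic ribosomal protein genes 46 lay higher in the mean and 33 lower (median 0.10), 29 without overlap above and 13 below, with Rps28 at 41 and 47.7 CPM against 162, 160 and 161 and Rpl19 at 436 and 485 against 982, 898 and 954. Of 70 oxidative phosphorylation genes 44 lay higher (median 0.15), 32 without overlap above and 11 below, among them Ndufa12 of complex I at 18.8 and 16.8 against 67.4, 63 and 57.2 CPM. After the length and GC correction the medians were -0.08 and -0.01, so the sign of both depends on that correction, and without Lung-Ctr replicate 1 that of the cytosolic ribosomal proteins was -0.11. These genes are short and many have processed pseudogenes, and the counting tool is not named in the labels used here, so the reads of single members are uncertain.

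Genes of the amino acid response lay higher in part. Atf4 itself lay 2.57-fold higher, and of the 38 tested genes of the list, Atf4 included, 30 had a higher mean (median 0.39, and 0.23 without Lung-Ctr replicate 1), with 9 above Lung-Ctr without overlap, 6 at an unadjusted p under 0.05 and 0 lower on either count. The share without overlap, 9 of 38, stands beside 17.4% over all genes. The transcription factor Atf5 was at 28.9 and 22.5 CPM against 54.9, 42.1 and 52.7 (log2 fold change 0.96). Shmt2, the mitochondrial serine hydroxymethyltransferase, was at 240 and 315 CPM against 484, 418 and 535 (log2 fold change 0.79 ± 0.178 SE, edgeR adjusted p = 0.119). Slc3a2, the heavy chain shared by several amino acid transporters, was at 142 and 243 CPM against 344, 402 and 419 (1.01), and Phgdh, the entry enzyme of serine synthesis, at 454 and 335 against 547, 594 and 653 (0.60). None of these 4 overlapped between groups.

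Other key genes of the list overlapped between groups. Ddit3, the death-promoting factor CHOP, was at 11.2 and 22.5 CPM against 11.6, 19.2 and 14.8, and Trib3, a pseudokinase that CHOP and ATF4 induce, at 36.1 and 35.7 against 11, 48.7 and 51.2. Asns, asparagine synthetase, was at 335 and 454 against 263, 352 and 497, and the cystine transporter Slc7a11 at 327 and 971 against 574, 893 and 1081. All 4 overlapped, with log2 fold changes between -0.15 (Ddit3) and 0.39 (Slc7a11). Chac1, which degrades glutathione, was at 22.5 and 13.5 CPM against 13.4, 41.3 and 33.3, also overlapping.

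Aminoacyl-tRNA synthetases, which charge tRNAs, lay higher in 18 of 20 (median 0.28), 7 without overlap and 5 at an unadjusted p under 0.05. Kars was at 135 and 134 CPM against 305, 230 and 258 (log2 fold change 0.98 ± 0.192 SE, edgeR adjusted p = 0.109), Wars at 93.2 and 84 against 134, 124 and 137 (0.57) and Gars at 383 and 294 against 430, 518 and 617 (0.62). All 3 were above the controls in every library. The unfolded protein response of the endoplasmic reticulum did not share the direction. Of its 21 genes 9 lay higher and 12 lower (median -0.12), 2 and 6 without overlap. Its chaperone Hspa5 (BiP) was at 1184 and 1172 CPM against 1148, 1045 and 898, and Edem1, which sorts misfolded glycoproteins for degradation, at 125 and 118 against 77.9, 92.7 and 86.6 (log2 fold change -0.51).

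The core of the amino acid response element, TGATGNAA on either strand, was in the windows of 12 of 33 genes of the ATF4 list (36.4%) and 5 of 12 tRNA synthetase genes (41.7%), against 4.51% of all genes. These shares follow from which genes the lists hold, not from their levels in these libraries. Gars, which lay higher in every library, and Slc7a11, which overlapped, are shown side by side because both hold the element while their levels differ in pattern. Capitals mark the matches. That of Gars starts 30 bases before the annotated start and reads on the opposite strand, and those of Slc7a11 start 66 and 47 bases before it, 1 on each strand.
Gars (chr6:55037751-55038050, strand plus): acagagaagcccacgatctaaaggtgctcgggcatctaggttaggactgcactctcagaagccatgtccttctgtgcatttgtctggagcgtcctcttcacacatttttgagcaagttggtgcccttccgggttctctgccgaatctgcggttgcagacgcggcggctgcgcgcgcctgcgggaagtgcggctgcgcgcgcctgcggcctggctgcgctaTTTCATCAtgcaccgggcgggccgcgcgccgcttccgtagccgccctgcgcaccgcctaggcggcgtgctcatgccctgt
Slc7a11 (chr3:50443564-50443863, strand minus): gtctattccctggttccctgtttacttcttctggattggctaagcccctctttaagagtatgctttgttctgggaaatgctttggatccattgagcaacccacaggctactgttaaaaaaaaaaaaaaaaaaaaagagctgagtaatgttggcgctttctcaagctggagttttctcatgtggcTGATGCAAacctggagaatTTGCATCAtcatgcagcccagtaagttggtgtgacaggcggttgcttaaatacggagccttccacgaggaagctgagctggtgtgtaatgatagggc

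Genes of cholesterol synthesis lay higher in nearly every member, with small differences. Of 25 tested, 23 had a higher mean in Lung-LMP1, 18 lay above Lung-Ctr without overlap and 14 had an unadjusted p under 0.05 (median log2 fold change 0.44, and 0.46 after the length and GC correction). Mvd, which decarboxylates mevalonate diphosphate, was at 31.6 and 29.5 CPM against 63.9, 68 and 62.8 (log2 fold change 1.09 ± 0.194 SE, edgeR adjusted p = 0.109). Nsdhl was at 73.2 and 53.9 CPM against 111, 137 and 106 (0.89), and Lss, which closes the sterol rings, at 190 and 134 against 283, 240 and 289 (0.74). In all 3 the Lung-LMP1 libraries were well apart from the controls.

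Insig1, which holds the pathway's transcription factor SREBP in the endoplasmic reticulum, overlapped, at 356 and 216 against 209, 366 and 303. Hmgcs1, an early synthase of the pathway, was at 451 and 444 CPM against 554, 662 and 600, whereas LMP1 had 287 and 291 and Ctr 469, 398 and 469. Its log2 fold changes of 0.44 and -0.62 differed between the Lung-titled and other libraries (interaction, edgeR adjusted p = 0.0469). For the 25 genes the median in LMP1 against Ctr was 0.04. No sterol regulatory element (ATCAC and CCAC separated by 1 base, either strand) was found in the 17 genes of this list with a window. Only 0.270% of all genes hold this exact pattern. Its absence from so few genes was therefore likely for any list, and nothing follows from it.

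Fatty acid synthesis lay the same way with less separation, 11 of 14 genes higher in the mean, 8 of them without overlap (median 0.36). Fasn, fatty acid synthase, was at 714 and 518 CPM against 1463, 761 and 905 (log2 fold change 0.76), Srebf1, the lipogenic transcription factor, at 226 and 158 against 270, 261 and 258 (0.45), and Elovl6 at 258 and 241 against 443, 308 and 317 (0.51). Lung-LMP1 replicate 1 was highest for Fasn and Elovl6.

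Genes of DNA replication and division lay higher in 34 of 40 (median 0.37, and 0.24 without Lung-Ctr replicate 1), 20 without overlap above Lung-Ctr and 1 below, and 12 at an unadjusted p under 0.05. Plk1, a mitotic kinase, was at 78.9 and 78.7 CPM against 179, 148 and 170 (log2 fold change 1.07 ± 0.259 SE, edgeR adjusted p = 0.127). Mcm7 of the replicative helicase was at 155 and 148 against 281, 230 and 258 (0.76), and the proliferation marker Mki67 at 442 and 559 against 730, 658 and 752 (0.51). These were apart, but not all division genes were. Top2a, at 1076 and 1439 CPM against 1121, 1051 and 1241, and Ccnb1, at 358 and 378 against 332, 333 and 367, overlapped and had log2 fold changes of -0.14 and -0.10.

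**Figure D4:**
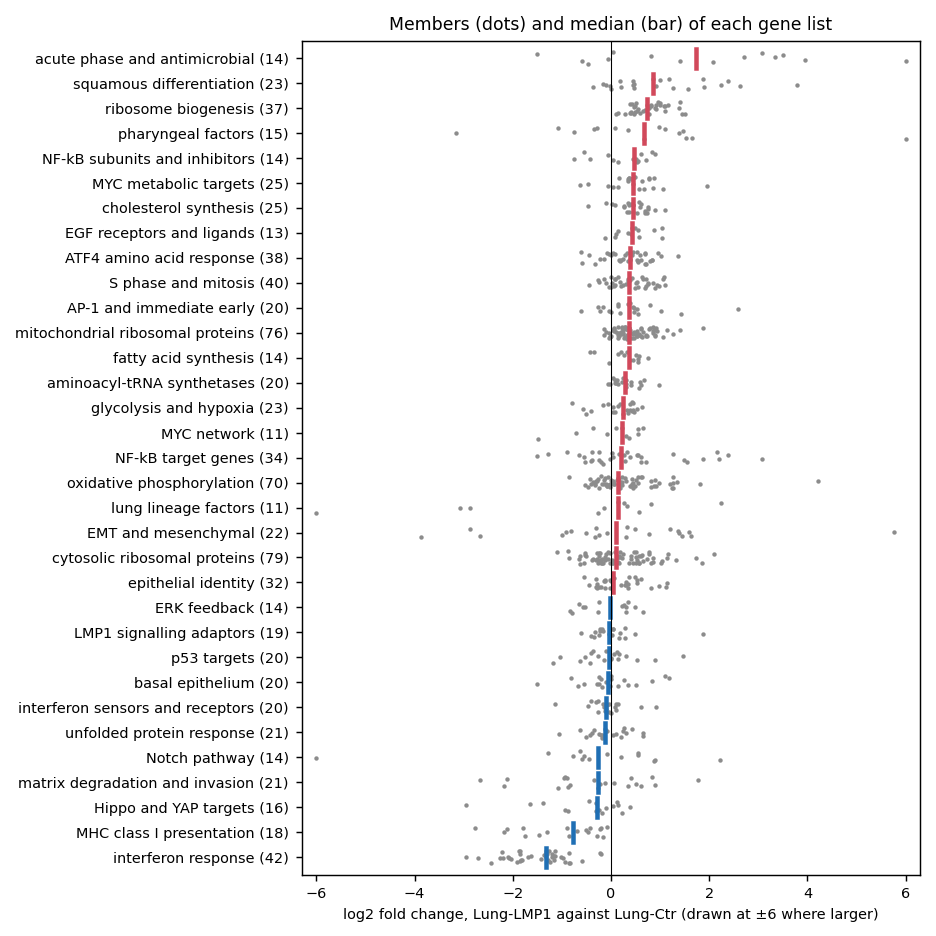
Log2 fold change of Lung-LMP1 against Lung-Ctr (x axis) for the members of gene lists, 1 dot per tested gene, the number tested in brackets, and the median as a bar (red above 0, blue below). Lists with fewer than 9 tested genes and the airway secretory list (9 tested, median 3.18) are not drawn. Values beyond the limit named on the x axis are drawn at that limit. Ribosome biogenesis (median 0.73) has all its dots above 0, and the interferon response (median -1.33) has all below.

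Interferon-stimulated genes lay lower in Lung-LMP1 without exception in the mean, yet few were apart. They are switched on when cells sense viral nucleic acid or interferon. All 42 tested genes had a lower mean (median -1.33), but 9 lay below Lung-Ctr without overlap, beside 15.9% over all genes, and 5 had an unadjusted p under 0.05. The summed level was 4507 and 2085 CPM against 659, 2685 and 585. Lung-LMP1 replicates 1 and 3 were low, whereas replicate 2 lay between the 2 controls. Without Lung-LMP1 replicate 2 the median was -2.98, and without Lung-Ctr replicate 1, the highest library, -0.73.

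Irf7, which amplifies the response, was at 89.2 and 24.9 CPM against 5.23, 58.7 and 4.61. Usp18, which dampens interferon receptors, was at 111 and 38.8 CPM against 4.65, 46.1 and 3.71, and Isg15, a ubiquitin-like modifier, at 37 and 12.4 against 1.38, 17.6 and 0.494. These 3 overlapped through Lung-LMP1 replicate 2 alone. Ifit2, which binds foreign RNA, was at 29 and 14.1 CPM against 3.42, 5.25 and 1.24 (log2 fold change -2.70 ± 0.667 SE, edgeR adjusted p = 0.129). The ubiquitin ligase Trim25 was at 365 and 389 against 202, 248 and 179 (-0.85). Neither overlapped between groups. Of the sensors and receptors above this response, 20 genes had a median of -0.10, with Ifnar1 at 96.3 and 122 CPM against 71.6, 99.5 and 74.9.

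Among libraries without the Lung title the spread lay in Ctr, whose interferon genes summed to 2748, 3282 and 651 CPM, against 527 and 561 in LMP1 (median log2 fold change -3.34). Usp18 was at 69.8, 61.9 and 6.54 CPM in Ctr and at 0.0528 and 0.326 in LMP1, so that Ctr replicate 3 lay near Lung-LMP1 replicates 1 and 3. The interferon-stimulated response element is GAAA repeated after 2 unspecified bases, on either strand. It was in 17 of the 32 interferon genes with a window (53.1%), against 3.99% of all genes. This share follows from which genes the list holds, not from their levels in these libraries. The window of Isg15 is shown as an example of a key gene of the list with several matches. It holds 3 overlapping matches, in capitals, the first of them 78 bases before the annotated start.
Isg15 (chr4:156200769-156201068, strand minus): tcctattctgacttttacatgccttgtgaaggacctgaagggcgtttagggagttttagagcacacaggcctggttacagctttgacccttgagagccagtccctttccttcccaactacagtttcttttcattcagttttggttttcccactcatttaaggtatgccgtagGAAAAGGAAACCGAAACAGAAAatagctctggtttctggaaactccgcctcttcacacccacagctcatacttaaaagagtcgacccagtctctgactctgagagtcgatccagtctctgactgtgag

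Genes of MHC class I presentation, part of which interferon also induces, lay lower in all 18 tested (median -0.78), 8 without overlap and 5 at an unadjusted p under 0.05. B2m, the light chain, was at 726 and 188 CPM against 160, 548 and 138, overlapping. The peptide transporter Tap1 was at 73.7 and 61.5 CPM against 13.7, 49.6 and 10.3 (log2 fold change -1.46), and the immunoproteasome subunit Psmb8 at 23.6 and 9.67 against 1.53, 5.19 and 0.577 (-2.76 ± 0.892 SE, edgeR adjusted p = 0.184). The order of libraries was that of the interferon genes, with Lung-LMP1 replicate 2 highest of its group. The median was -0.35 without Lung-Ctr replicate 1 and -1.26 without replicate 2.

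**Figure D5:**
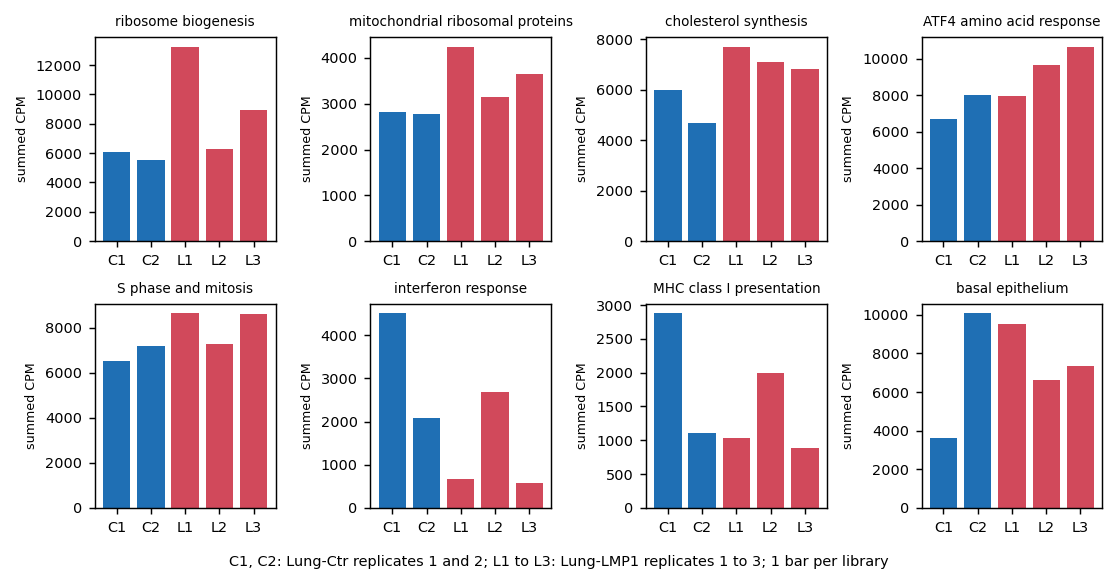
Summed CPM of the members of 8 gene lists (y axes, from 0), 1 bar per library, blue Lung-Ctr and red Lung-LMP1. Ribosome biogenesis runs highest in Lung-LMP1 replicate 1 (13266) and the interferon response in Lung-Ctr replicate 1 (4507), while Lung-LMP1 replicate 2 (6273 and 2685) lies near Lung-Ctr in both.

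Of the genes through which LMP1 is known to signal, the adaptors were split, while the NF-kB genes lay higher in part. The 19 TRAF and TNF receptor adaptors tested had a median of -0.05. Traf3 was at 147 and 99.9 CPM against 167, 116 and 132, and Traf2 at 33.2 and 41.9 against 37.4, 31.5 and 30.1, both overlapping. Traf1, itself a target of NF-kB, was low, at 1.06 and 0.134 CPM against 1.82, 2.63 and 2.14, without overlap. The 14 NF-kB subunits and inhibitors had a median of 0.47 (0.17 without Lung-Ctr replicate 2). Of these 14, 5 lay without overlap above and 2 below, beside 17.4% and 15.9% over all genes. By an unadjusted p under 0.05, 3 lay higher and 1 lower, beside 9.03% and 8.02%. Rela was at 71.8 and 46 CPM against 104, 120 and 92 (log2 fold change 0.84 ± 0.205 SE, edgeR adjusted p = 0.129). Nfkb1 was at 171 and 140 against 238, 215 and 181 (0.45), while Relb overlapped at 59.7 and 43.1 against 43.2, 72.3 and 42.6.

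Among 34 NF-kB target genes 20 lay higher and 14 lower (median 0.21). Without overlap 6 lay above, near the 17.4% over all genes. At an unadjusted p under 0.05, 3 lay higher and 1 lower, beside 9.03% and 8.02% over all genes. Their sum was 3143 and 1077 CPM against 2137, 3554 and 1843, and their median was 1.31 without Lung-Ctr replicate 1 and -0.26 without replicate 2, so the direction rests on which control is kept. The neutrophil chemokine Cxcl2 was at 33 and 5.78 CPM against 72.8, 139 and 46.1 (log2 fold change 2.15), apart from the controls. Cxcl1 was at 267 and 54.4 CPM against 228, 201 and 304, Tnfaip3 at 154 and 57.8 against 62.7, 160 and 102, and Icam1 at 108 and 89.9 against 93.8, 93.5 and 62.8, all overlapping. Ccl20 overlapped as well, at 108 and 26.4 against 22.6, 39.5 and 20.5.

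Of the AP-1 factors, Fosl1 (FRA1) was at 2.12 and 0.806 CPM against 12.4, 6.79 and 7.33 (log2 fold change 2.59 ± 0.655 SE, edgeR adjusted p = 0.136), Jund at 180 and 52.9 against 286, 357 and 301 (1.43) and Junb at 99.9 and 130 against 213, 269 and 218 (1.02). Fosl1, Jund and Junb did not overlap, whereas Fos, at 761 and 346 against 348, 790 and 749, and Egr1, at 353 and 572 against 455, 735 and 620, did. Of the 20 genes of the list, only these 3 lay above Lung-Ctr without overlap, beside 17.4% over all genes. At an unadjusted p under 0.05, 3 lay higher, beside 9.03%. The list of 20 had a median of 0.36, which was 0.78 without Lung-Ctr replicate 1, 0.08 without replicate 2, 0.61 without Lung-LMP1 replicate 1 and 0.05 without Lung-LMP1 replicate 2. The log2 fold change of Jund was 0.81 without Lung-Ctr replicate 2 and 2.55 without replicate 1. The 14 growth factor feedback genes of the ERK pathway were split, 7 higher and 7 lower in the mean (median -0.01). Without overlap 3 lay above Lung-Ctr and 3 below, beside 17.4% and 15.9% over all genes. By an unadjusted p under 0.05, 1 lay higher and 2 lower, beside 9.03% and 8.02%. Among the lower were Spred1 at 346 and 246 CPM against 154, 197 and 162 (log2 fold change -0.79) and Spry2 at 47.1 and 31.4 against 22.6, 27.1 and 25.1 (-0.65).

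Hippo pathway genes lay lower in 11 of 16 (median -0.28), 4 without overlap, beside 53.2% and 15.9% over all genes, and 4 at an unadjusted p under 0.05. The median was -0.02 without Lung-Ctr replicate 1 and -0.56 without replicate 2. Amotl2, an angiomotin that restrains YAP, was at 143 and 165 CPM against 46.7, 71.8 and 59.3 (log2 fold change -1.38 ± 0.294 SE, edgeR adjusted p = 0.109), Amotl1 at 385 and 654 against 265, 313 and 275 (-0.87) and the kinase Lats2 at 37.6 and 29.1 against 13.2, 21.6 and 17.5 (-0.94). All 3 lay apart. The YAP target Ctgf was at 116 and 21.4 CPM against 2.47, 19.9 and 4.12 (-2.95, and -1.28 without Lung-Ctr replicate 1), while Cyr61 overlapped at 412 and 104 against 90.4, 357 and 232. In LMP1 against Ctr the log2 fold change of Amotl2 was 1.18, and the difference between the 2 comparisons passed (interaction, edgeR adjusted p = 0.0395).

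Epithelial genes were expressed in both groups, and the defining lung genes Nkx2-1 and Sftpc were not. The title was checked against lung markers: Nkx2-1, the lung lineage factor, had 0 counts in all 5 libraries, and Sftpc, a surfactant gene, was at most at 0.134 CPM, whereas organoids of normal lung had 788 to 990 CPM of Nkx2-1 and 37317 to 45810 of Sftpc (by total count, from a separate table). The pharyngeal factor Pax9 was at 73 and 67.2 CPM against 75.6, 116 and 75.1, against 5.34 to 34.6 by total count in normal nasopharynx organoids, and Pitx1 at 36.6 and 71.8 against 257, 75.8 and 177. Other genes of the lung lists, which other epithelia also express, were present: the 14 lung lineage factors summed to 715 and 386 CPM against 450, 671 and 427, with Foxp1 at 122 and 117 against 145, 120 and 129, and the alveolar list to 491 and 395 against 163, 552 and 312, with the water channel Aqp5 at 374 and 280 against 42.9, 345 and 156. Neither sum separated the groups. Among markers of other cell types, the leukocyte genes Adgre1 (0 counts in all 5 libraries) and Ptprc (at most 0.0824 CPM) were at or near 0. The 16 haematopoietic genes summed to 9.46 and 20 CPM against 13.2, 24.5 and 21.4, most of it from the lysosomal gene Cd68 (7.2 and 18.6 against 11.3, 18.5 and 17.7), and all 5 tested members had a higher mean in Lung-LMP1 (median 1.17, 3 without overlap). Endothelial genes summed to 7.97 and 9.61 against 9.96, 11.3 and 10.4 CPM, and fibroblast markers to between 0.509 and 2.54 CPM. The part of such cells in the results was not tested.

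The 32 epithelial genes had a median of 0.04. Cdh1 (E-cadherin) was at 888 and 636 CPM against 998, 1003 and 794, Esrp1, a splicing factor of epithelia, at 373 and 464 against 374, 450 and 425, and Grhl2 at 98.8 and 133 against 126, 110 and 108. Each overlapped. Klf5, an epithelial transcription factor, had the smallest p of the list, at 84 and 98.2 against 189, 211 and 200 (log2 fold change 1.13 ± 0.321 SE, edgeR adjusted p = 0.153). Mesenchymal genes were split, 11 of 22 higher in the mean and 11 lower (median 0.10). Of the 22, 4 lay above and 2 below without overlap, beside 17.4% and 15.9% over all genes. Their median was 0.92 without Lung-Ctr replicate 1 and -0.69 without Lung-LMP1 replicate 2. The filament gene Vim was at 5.65 and 0.336 CPM in Lung-Ctr and at 0, 1.09 and 0 in Lung-LMP1, and Zeb1 at 1.06 and 0 against 0.509, 0.705 and 0.

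For 7 of these 32 genes the genotype difference was not the same in the 2 comparisons. In LMP1 against Ctr, Grhl2 was at 6.86 and 11 CPM against 116, 60.5 and 107, and Esrp1 at 52.9 and 92 against 507, 273 and 395. The difference between the comparisons passed for both (interaction log2 3.38, edgeR adjusted p = 0.0239 for Grhl2, and 2.43, adjusted p = 0.0446 for Esrp1). It also passed for the laminin chain gene Lamb3 (interaction log2 4.65, edgeR adjusted p = 0.0218), Pax9 (4.58, adjusted p = 0.0239) and Foxa1 (3.95, adjusted p = 0.0446). Of 13460 genes the interaction called 120 (0.892%), 109 of them (0.810% of all genes) with the higher genotype difference in the Lung-titled libraries and 11 (0.0817%) with the lower. All 109 fell in LMP1 against Ctr (median log2 fold change -3.81), while their median between the Lung-titled groups was 0.23. The count of 120 was 4 without LMP1 replicate 1, 5 without LMP1 replicate 2, 9 without Lung-LMP1 replicate 1 or 3, 23 without Lung-LMP1 replicate 2, 53 and 274 without Lung-Ctr replicate 1 and 2, and 43, 331 and 66 without Ctr replicates 1, 2 and 3.

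Basal genes varied widely within the groups. Krt5, the keratin of basal cells, was at 20.1 and 2016 CPM in Lung-Ctr and at 1890, 597 and 1392 in Lung-LMP1, Krt14 at 73.7 and 473 against 891, 412 and 551, and the basal factor Trp63 at 52.9 and 346 against 235, 132 and 161. Lung-Ctr replicate 1 was the low library in each. The 20 basal genes had a median of -0.06, which was -0.53 without Lung-Ctr replicate 1 and 1.84 without replicate 2, and none lay without overlap in either direction.

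Squamous differentiation genes lay higher in 19 of 23 (median 0.86). Without overlap 6 lay above and 1 below, beside 17.4% and 15.9% over all genes. At an unadjusted p under 0.05, 2 lay higher, near the 9.03% over all genes. The median was 0.40 without Lung-Ctr replicate 1, 2.71 without Lung-Ctr replicate 2 and 0.46 without Lung-LMP1 replicate 1, and in LMP1 against Ctr it was -4.21. Cnfn, a cornified envelope protein, was at 1.27 and 1.55 CPM against 7.85, 7.81 and 6.51 (log2 fold change 2.39 ± 0.486 SE, edgeR adjusted p = 0.109). Anxa8 was at 15 and 40.8 against 140, 99.7 and 66.2 (1.87). Krt13, the keratin of mucosal squamous layers, was at 2.33 and 48.1 against 316, 39.6 and 111, and Krt4 at 39.4 and 379 against 387, 351 and 510, both overlapping.

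A pair of further groups followed 1 library. Airway secretory genes summed to 42.8 and 41.1 CPM in Lung-Ctr and to 53.7, 710 and 106 in Lung-LMP1, where the gel-forming mucin Muc5b was at 1.02, 162 and 0.741 CPM, while the club cell gene Scgb1a1 had 0 counts in all 3 Lung-LMP1 libraries and at most 0.141 CPM in Lung-Ctr. The antimicrobial lectin Reg3g was at 0.654, 155 and 1.32 CPM in Lung-LMP1. Both stood out in Lung-LMP1 replicate 2, and the airway list's median of 3.18 became 0.58 without it. The p53 target Cdkn1a was at 26.3 and 12.3 CPM against 54.2, 68.5 and 37.7 (log2 fold change 1.47) without overlap, although the 20 p53 targets had a median of -0.05 and Mdm2 overlapped at 122 and 93.5 against 102, 137 and 121.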

How the data were processed

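RNA was measured as gene counts in 16 organoid libraries, of which 10 are tumours and 5 carry the Lung title. The submitters' processing notes name STAR, DESeq2, DESeq and the build mm10, without their roles; versions, counter and annotation were not found in the labels used here. The deposited counts are raw reads per gene, and 48 further columns of per-sample values were not used. The authors' deposited table also gives log2 fold changes and adjusted p-values, quoted only where named. Some genes of the lists are not reported here. edgeR 4.0.16 (R 4.3.3) was fitted to the counts of the 10 tumour libraries (expression filter by group, TMM scaling, quasi-likelihood test, Benjamini-Hochberg adjustment over 13460 genes). The script was tested on simulated data. It called 7 of 100 genes changed 2-fold in Lung-LMP1 and 73 of 100 changed 4-fold, with 0 false calls. A gene that did not pass may therefore still differ. The members and the gene lists were chosen with earlier results of these data known. Named genes are Trp53, Cdkn2a and Myc, in each direction the 8 of smallest p and the 6 of largest fold among non-overlapping genes averaging 3 or more log2 CPM, and each list's key genes and 4 members of smallest p. Atf5 and Cd68 were chosen after their values were seen. Alternatives were DESeq2 1.42.0, limma voom 3.58.1, other scaling, no filter, only the 5 libraries, a replicate block, a length and GC correction (GENCODE vM21 on GRCm38) and leaving out each library. DESeq2 on the 5 libraries, and the correction with only these, were added after seeing the data.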

Additional observations from a re-analysis of the deposited data

Results flagged for a closer look

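The genotype difference in the Lung-titled libraries, minus that in the libraries without the title, was tested as an interaction in edgeR over all genes, and 11 of the genes named passed. On the log2 scale the difference was, for a laminin chain and a chemokine, Lamb3 (4.65 ± 0.585 SE, adjusted p = 0.0218) and Ppbp (10.06 ± 1.66 SE, adjusted p = 0.0402). For transcription and splicing factors of epithelia edgeR gave Grhl2 (3.38 ± 0.456 SE, adjusted p = 0.0239), Esrp1 (2.43 ± 0.431 SE, adjusted p = 0.0446), Foxa1 (3.95 ± 0.698 SE, adjusted p = 0.0446), Pax9 (4.58 ± 0.607 SE, adjusted p = 0.0239) and Pitx1 (6.15 ± 1.02 SE, adjusted p = 0.0407). For squamous genes edgeR gave Cnfn (4.49 ± 0.706 SE, adjusted p = 0.0393) and Anxa8 (5.03 ± 0.711 SE, adjusted p = 0.0276), for the Hippo gene Amotl2 (-2.55 ± 0.415 SE, adjusted p = 0.0395) and for the sterol gene Hmgcs1 (1.06 ± 0.191 SE, adjusted p = 0.0469). With DESeq2 all 11 passed, with limma voom 0 and with the replicate block 0.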

How the results depend on the processing

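edgeR called 0 genes as reported, with limma voom, RLE scaling, no filter, only the 5 libraries, the replicate block and the length and GC correction. DESeq2 called 881, DESeq2 on only the 5 libraries 485, and leaving out 1 library gave 0 to 33. The interaction count of 120 was 926 with DESeq2, 18 with limma voom, 2 with the replicate block and 4 to 331 when 1 library was left out; the cause was not tested. Deviations from the group means correlated at -0.246 and -0.341 between same-numbered Lung-Ctr and Lung-LMP1 libraries. Between Lung-LMP1 and Ctr they correlated at -0.348, 0.174 and 0.116. With 2 Lung-Ctr libraries, their deviations are mirror images of each other, so these values cannot decide whether the numbers pair the samples. Of 129 genes named with a test, 61 passed with DESeq2 and none with limma voom. Log2 fold changes that changed sign belong to genes that overlap between groups. With limma voom, Cdkn2a 0.05, Trib3 -0.25, Trp63 0.33, Zeb1 0.54. With replicate block, Cdkn2a 0.04, Ddit3 0.07, Trib3 -0.09, Lamb3 0.10, Zeb1 0.08, Cyr61 0.32. With length and GC correction, Trib3 -0.18, Top2a 0.02, Relb -0.10, Grhl2 0.02, Esrp1 0.01. With length and GC correction, only the 5 Lung-titled libraries, Trib3 -0.18, Top2a 0.02, Relb -0.10, Grhl2 0.01, Esrp1 0.00. With no filter on low counts, Esrp1 0.00. When 1 library was left out, the range was Cdkn2a -0.71 to 0.87, Odc1 -0.36 to 1.74, Ddit3 -0.58 to 0.44, Trib3 -0.28 to 0.48, Asns -0.36 to 0.15, Slc7a11 -0.21 to 1.38, Insig1 -0.28 to 0.42, B2m -1.62 to 0.57, Top2a -0.36 to 0.09, Relb -0.26 to 0.27, Traf3 -0.09 to 0.44, Tnfaip3 -0.50 to 0.89, Cxcl1 -0.12 to 2.15, Ccl20 -1.96 to 0.05, Fos -0.27 to 0.85, Mdm2 -0.02 to 0.34, Grhl2 -0.24 to 0.22, Esrp1 -0.18 to 0.16, Krt5 -0.67 to 6.01, Trp63 -1.0 to 1.74, Lamb3 -0.30 to 0.32, Vim -8.45 to 0.23, Zeb1 -1.31 to 5.66, Cyr61 -0.86 to 1.11, Cd68 -0.25 to 1.14. Depth limits genes near the floor, and 2 Lung-Ctr libraries that differ limit all comparisons.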
